A study of Mus musculus with 20 samples.

Results

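The genes described here are 41 genes of skeletal muscle contraction, calcium handling and energy supply, of 16669 genes in RNA-seq libraries of whole mouse ear pinnae. They were taken by name, with earlier results of these data known. Of them, 19 encode parts of the sarcomere, 9 move or store calcium, 4 supply energy or oxygen, and 9 are other genes enriched in muscle. All 41 were found in the table by their Ensembl identifiers, and all 41 passed the filter on low values (5 or more of the 20 libraries at a log2 value of 0 or above), as did 16461 genes in all. Asb15 came closest to being removed, with 7 libraries at or above 0, of which 3 were outside the PBS group.

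The study compared 4 groups of 5 libraries. Control mice received PBS in the dermis of the right ear, and the other groups received a cytokine in PBS by the same route, 10 µl at 0.1 µg/µl: IL-4, IL-13 or else IL-31. The type 2 cytokines IL-4 and IL-13 share a receptor chain, and IL-31 is a cytokine known for causing itch. The sources used here do not give the strain, age or sex of the mice, the time to harvest or whether libraries are from separate animals. P-values therefore measure only the spread between these libraries. A value is a mean over the whole pinna, which holds skin, cartilage, fat, vessels and thin auricular muscles. In such bulk RNA, fewer muscle fibres and less muscle RNA per fibre cannot be told apart.

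A striated muscle fibre shortens when myosin in the thick filaments pulls on actin in the thin filaments, within repeating units called sarcomeres that are bounded by Z-discs. Calcium released from the sarcoplasmic reticulum binds troponin on the thin filament and opens actin to myosin, and a calcium pump then returns it to the store. ATP for both steps is buffered by creatine phosphate and made from glycogen and through glycolysis, and many of these proteins come in fast-fibre and slow-fibre forms.

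The values are the authors' log2 CPM (reads per gene scaled to library size, on a log2 scale), which hold an offset of 0.156 CPM, so a value of -2.68 stands for no reads and fold changes of low genes are understated. Effective library sizes were 6.11 to 23.7 M reads (M, mega), and 3 reads corresponded to 0.126 to 0.491 CPM. Skeletal muscle RNA was present in every library: the 5 defining fibre genes Acta1, Ckm, Mylpf, Tnnt3 and Atp2a1 had no value below 3.80. PBS libraries 1, 2 and 3 stood apart in epidermal markers, and IL-31 library 3 stood apart in muscle genes. The values of single genes come from all 20 libraries, and the calls that were lost without PBS libraries 1, 2 and 3 are named with the counts.

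Part of the promoters of these genes hold sequence letters known from muscle. Whether they relate to the differences between groups was not tested. RefSeq promoter windows on GRCm38.p6 were matched for 30 of the 41 members. The E-box CAGCTG, which reads the same on both strands and is a sequence that myogenic helix-loop-helix factors can bind, lay within 250 bases before the start in 15 of these 30 members. It was in 45.7% of the 35 member windows, against 13.0% of all 32841 windows. The CArG box, the sequence type bound by serum response factor, was in 11.4% of member windows and 1.47% of all windows. These were 4 member windows of 3 members, since overlapping windows of Ldb3 held the same match. The MEF2 site was in 1 member window, that of Ttn (2.86%), and in 0.509% of all windows. All 3 patterns were searched on both strands, and no matches of different patterns overlapped. These matches are descriptions of letters, not of binding. The last 100 bases before the start of 6 members are printed 5′ to 3′ on the gene's strand, with the matched letters in capitals. They were chosen to show sarcomere, calcium and energy genes side by side, with Mybph added because its values under IL-31 differed in sign from those of the other members.
Mylpf, chr7:127211508-127211607, plus strand, E-box: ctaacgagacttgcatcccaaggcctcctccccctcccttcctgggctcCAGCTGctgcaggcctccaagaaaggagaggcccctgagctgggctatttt
Des, chr1:75360192-75360291, plus strand, E-box: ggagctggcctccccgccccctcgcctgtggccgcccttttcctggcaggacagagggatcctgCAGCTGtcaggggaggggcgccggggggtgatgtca
Mybph, chr1:134193348-134193447, plus strand, E-box: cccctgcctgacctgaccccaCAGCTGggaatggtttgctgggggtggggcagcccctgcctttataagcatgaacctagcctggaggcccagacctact
Atp2a1, chr7:126463074-126463173, minus strand, E-box: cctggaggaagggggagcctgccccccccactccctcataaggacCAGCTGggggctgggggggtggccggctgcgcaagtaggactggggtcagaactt
Pygm, chr19:6384308-6384407, plus strand, E-box: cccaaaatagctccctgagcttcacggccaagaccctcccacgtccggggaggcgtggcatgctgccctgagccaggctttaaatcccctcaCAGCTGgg
Acta1, chr8:123894776-123894875, minus strand, CArG box: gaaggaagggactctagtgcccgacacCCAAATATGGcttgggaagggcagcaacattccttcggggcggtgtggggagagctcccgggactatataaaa

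The muscle genes were lower after IL-4 and after IL-13 than after PBS, in all 3 functional roles. After IL-4, 40 of the 41 members fell, with a median log2 difference of -2.62 (range -5.08 to -0.48), and the remaining member, Fbxl22, did not pass the test. After IL-13, 40 of 41 fell, with a median of -2.55 (range -4.49 to -0.64), and again Fbxl22 was the exception. No member rose in either comparison. The members were chosen with earlier results of these data known, so the counts describe this list and are no independent support. Calls are at a Benjamini-Hochberg adjusted p under 0.05 in limma over all 16461 genes tested. Of all those genes, 9.63% were called lower after IL-4 and 9.8% after IL-13, and their median log2 differences were -0.02 and -0.03. The 5 IL-4 values lay entirely below the 5 PBS values in 34 of 41 members, where 5.89% of all genes did so. For IL-13 the count was also 34, where 5.01% of all genes did so. The 2 comparisons share the 5 PBS libraries, so the like counts are not independent. Without PBS libraries 1, 2 and 3, 33 members were called after IL-4 (background 4.66%) and 12 after IL-13 (background 1.82%), while the IL-13 median difference stayed between -2.86 and -2.32 under every alternative run. The 7 IL-4 calls lost this way were those of Mybpc1, Cacna1s, Trdn, Mb, Lrrc30, Tmem233 and Dysf (adjusted p = 0.0508 to 0.19). After IL-13, 28 calls were lost (adjusted p = 0.0502 to 0.142), and the 12 kept were those of Actn3, Mylpf, Myl1, Myot, Des, Sln, Casq2, Dhrs7c, Pygm, Eno3, Lrrc2 and Nos1. The IL-13 calls of all other members, given gene by gene with all libraries, were lost when these 3 libraries were left out together. That fit had only PBS libraries 4 and 5 as controls, and its median differences were -2.50 for IL-4 and -2.48 for IL-13.

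**Figure D1:**
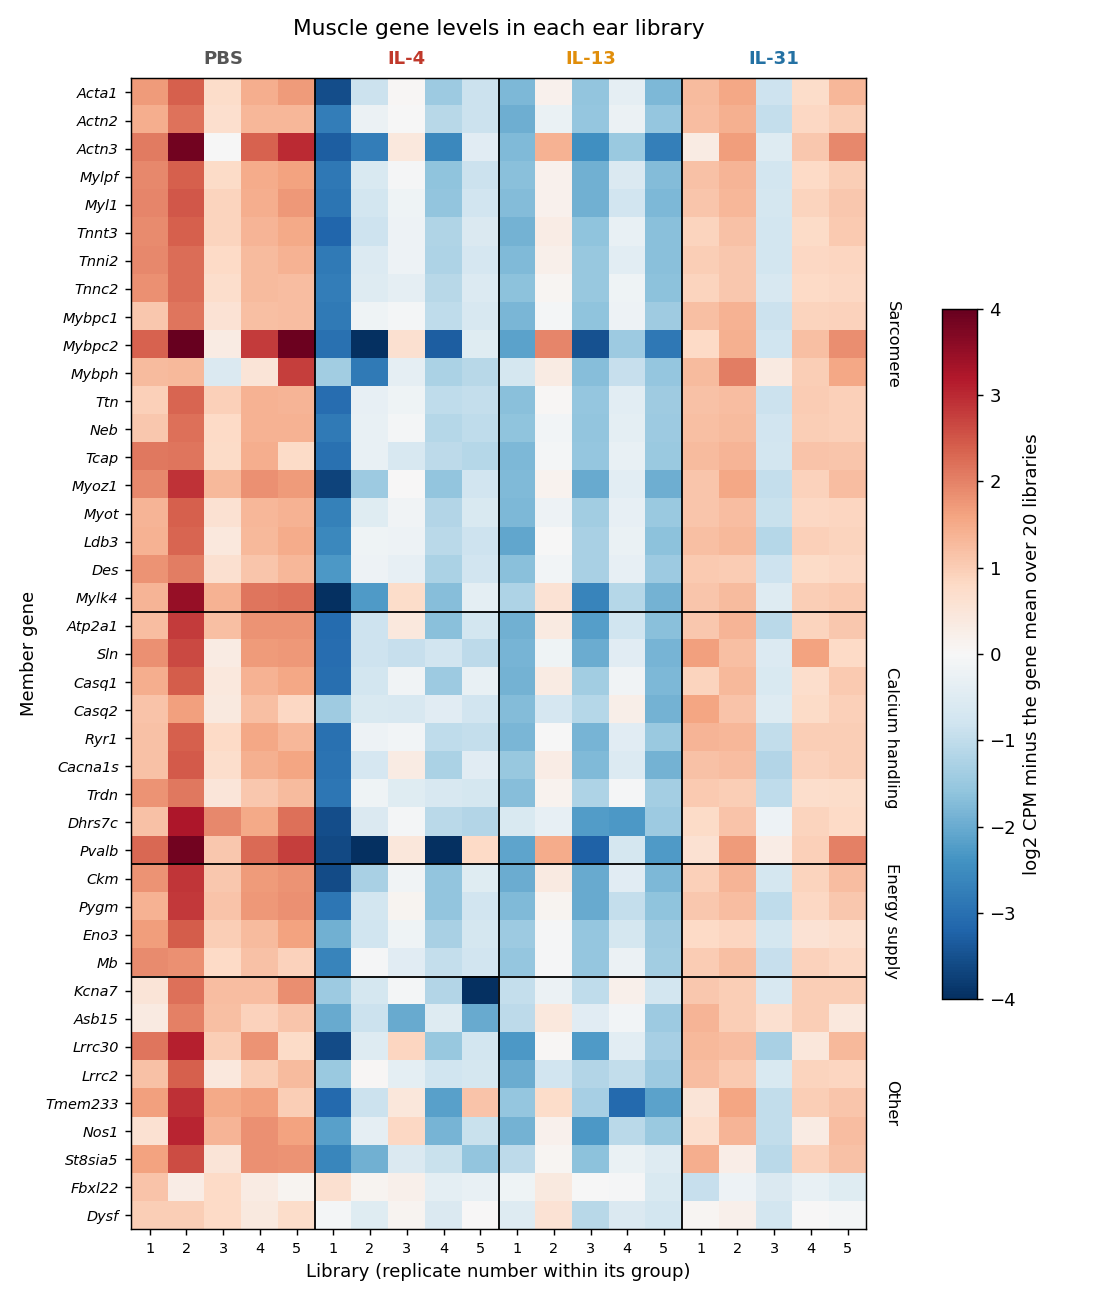
Level of each of the 41 members (rows, by role) in each of the 20 libraries (columns), as log2 CPM minus the gene's mean over 20 libraries, with colours ending at -4 and 4. PBS columns are red and IL-4 and IL-13 columns mostly blue, while Fbxl22 and Dysf at the bottom vary little and IL-31 library 3 is blue beside 4 red columns.

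As a share of all CPM in a library, the 41 members took 0.868 to 2.54% in PBS (median 1.22%). They took 0.0626 to 0.425% after IL-4 (median 0.268%), 0.123 to 0.507% after IL-13 (median 0.145%) and 0.239 to 1.07% after IL-31 (median 0.879%). Every IL-4 and IL-13 library lay below every PBS library in this share, and the IL-31 libraries overlapped the PBS range. PBS library 2 had the highest share and IL-4 library 1 the lowest.

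Compared per length of exon sequence, the members spanned a wide range of levels in PBS ears. The fast troponin C gene Tnnc2 had the highest level, at 1297 ± 526.8 CPM per kilobase (SD, n = 5), above Acta1 at 720.4 ± 290.2, Tnnt3 at 661.8 ± 268.2, Atp2a1 at 655.0 ± 341.3 and Mylpf at 649.0 ± 257.2. Tcap at 584.6 and Mb at 578.2 CPM per kilobase came next, and from Acta1 down to Mb neighbouring levels differed by less than their SD. At the other end stood Asb15 at 0.295 ± 0.146, St8sia5 at 0.590 ± 0.292, Fbxl22 at 0.853 ± 0.279 and Nos1 at 1.41 ± 0.977 CPM per kilobase.

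Among the thin-filament genes, all fell after IL-4 and after IL-13. Acta1, the skeletal alpha-actin of the thin filament (GRCm38 chromosome 8, 123891769 to 123894751), had log2 CPM levels of 10.13, 10.81, 9.15, 9.87 and 10.12 in PBS libraries 1 to 5. Its levels were 4.87, 7.54, 8.47, 6.95 and 7.55 after IL-4, and 6.61, 8.59, 6.83, 8.04 and 6.62 after IL-13. After IL-31 they were 9.68, 9.96, 7.60, 9.16 and 9.74. The IL-4 and IL-13 values all lay below the lowest PBS value, whereas 4 of 5 IL-31 values lay within the PBS range. Acta1 fell by 2.94 on the log2 scale after IL-4 (SE 0.56, adjusted p = 0.00251, a 7.67-fold lower level) and fell by 2.68 after IL-13 (SE 0.56, adjusted p = 0.00374). The 3 fast troponin subunits that place calcium control on actin, Tnnt3, Tnni2 and Tnnc2, fell by 2.51 to 2.81 after IL-4, with adjusted p-values of 0.00171 to 0.00184, and fell by 2.43 to 2.64 after IL-13. Neb, the giant protein nebulin that runs along the thin filament, differed by -2.44 and -2.39 on the log2 scale, both called.

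Thick-filament genes fell as well, by widely differing amounts. Mylpf, the phosphorylatable light chain of fast myosin, had log2 CPM levels of 9.63, 10.09, 8.46, 9.18 and 9.30 in PBS. It stood at 4.84, 7.09, 7.64, 6.09 and 6.84 after IL-4, and at 6.02, 7.86, 5.77, 7.13 and 5.98 after IL-13. Neither cytokine group overlapped PBS, and Mylpf fell by 2.83 after IL-4 (SE 0.50, adjusted p = 0.00151) and fell by 2.78 after IL-13 (adjusted p = 0.00196). Myl1, the essential light chain of fast myosin, differed by -2.94 and -2.91, both called. The slow-type myosin-binding protein C gene Mybpc1 had levels of 8.58 ± 0.56 in PBS, 6.39 ± 1.11 after IL-4 and 6.30 ± 0.82 after IL-13 (mean ± SD, n = 5), differences of -2.19 (SE 0.50, adjusted p = 0.00609) and -2.29 (adjusted p = 0.00441). Without PBS libraries 1, 2 and 3 the IL-4 difference of Mybpc1 was -2.17 and no longer called (adjusted p = 0.058).

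The fast-type partner of that gene, Mybpc2, had the largest difference of the 41 members. Its log2 CPM levels were 4.47, 7.16, 2.45, 4.92 and 6.05 in PBS. After IL-4 they were -0.88, -2.68, 2.75, -1.18 and 1.63, where IL-4 library 2 held no reads. After IL-13 they were -0.02, 4.07, -1.37, 0.68 and -0.74. IL-4 library 3 and IL-13 library 2 reached above the lowest PBS library, so the groups overlapped in spite of a difference of -5.08 after IL-4 (SE 1.05, adjusted p = 0.00378) and -4.49 after IL-13 (SE 1.05, adjusted p = 0.00678). Mylk4, of the myosin light chain kinase family, differed by -3.74 and -3.39, and the titin gene Ttn, whose protein spans from Z-disc to the middle of the sarcomere, by -2.50 and -2.40, all called. Mybph, a relative of myosin-binding protein C, fell by 2.44 after IL-4 (adjusted p = 0.00485) and fell by 1.96 after IL-13 (adjusted p = 0.0145), with overlap of the groups in both.

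Z-disc genes fell in both comparisons as well. Actn3, the alpha-actinin of fast fibres, differed by -3.98 after IL-4 (SE 0.83, adjusted p = 0.00383) and -3.66 after IL-13 (SE 0.83, adjusted p = 0.00555), while its broader relative Actn2 differed by -2.39 (SE 0.49) and -2.50 (SE 0.49). IL-4 library 3, at 4.5, and IL-13 library 2, at 5.47, lay above the lowest PBS value of Actn3, 4.06. Myoz1, a fast-fibre Z-disc protein that binds calcineurin, differed by -3.42 and -3.13. Tcap, which caps titin at the Z-disc, Myot (myotilin), Ldb3, which holds alpha-actinin, and Des, the intermediate filament desmin that links Z-discs, differed by -2.67 to -2.35 after IL-4 and by -2.49 to -2.36 after IL-13. All 19 sarcomere members were called lower in both comparisons, and 16 of 19 did not overlap PBS in each.

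**Figure D2:**
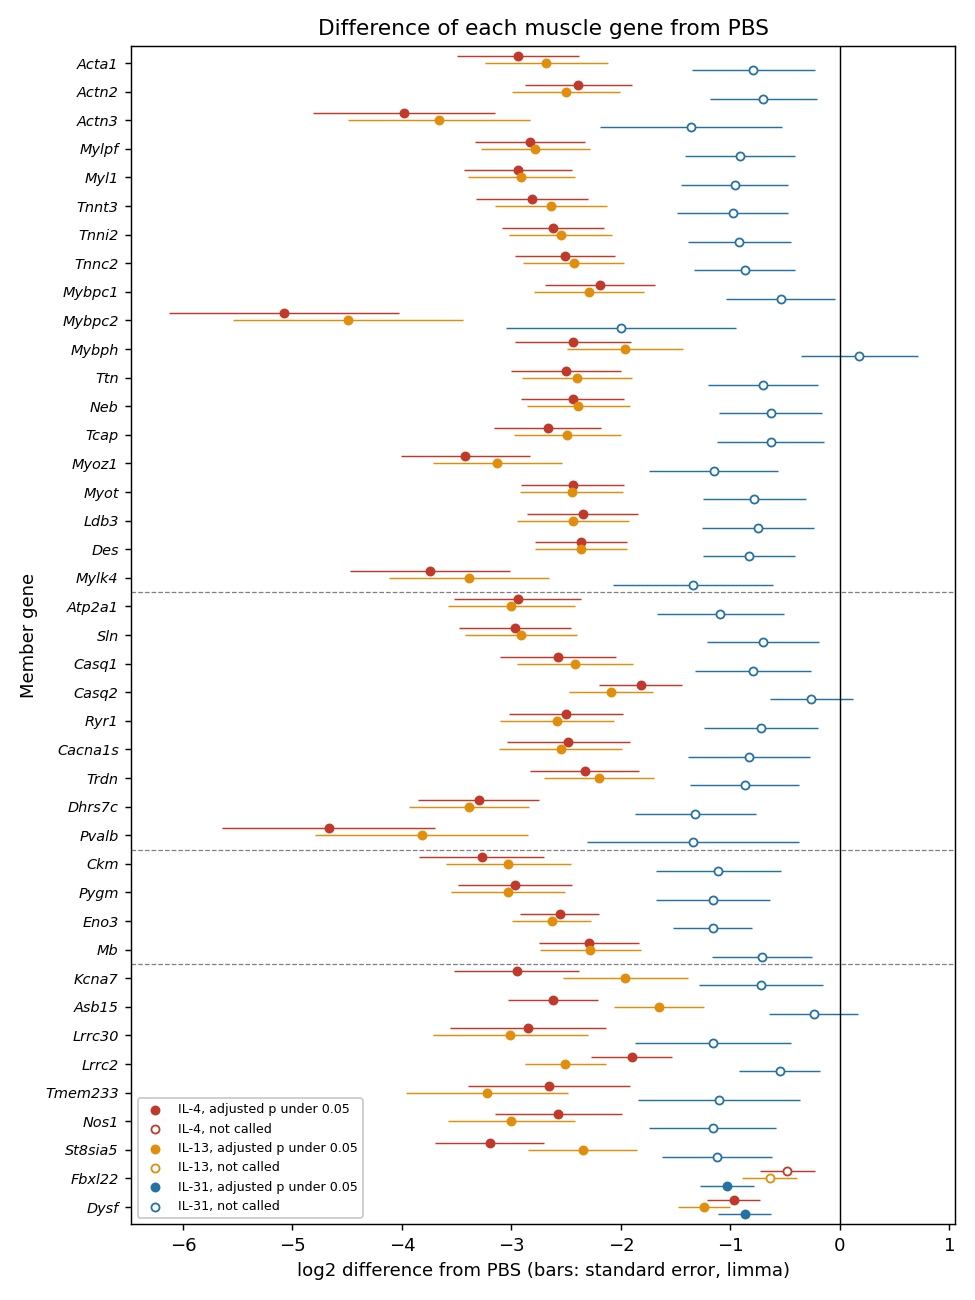
Difference of each member from PBS in log2 units with its standard error from limma, for IL-4 (red), IL-13 (orange) and IL-31 (blue), filled where the adjusted p was under 0.05. IL-4 and IL-13 points lie near each other between about -5.08 and -1.65 for all members but Fbxl22 and Dysf, and IL-31 points are open except for those 2 genes.

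Genes that release, pump and store calcium fell together with the filaments: 9 of 9 were called lower after IL-4 and after IL-13, with medians of -2.57 and -2.58. Atp2a1, the calcium pump of fast fibres (GRCm38 chromosome 7, 126445858 to 126463108), stood at 10.49, 12.07, 10.46, 11.05 and 11.05 in PBS. It stood at 6.19, 8.44, 9.68, 7.59 and 8.53 after IL-4, and at 7.34, 9.64, 7.08, 8.46 and 7.61 after IL-13. No IL-4 or IL-13 library reached the lowest PBS library. Atp2a1 fell by 2.94 (SE 0.58, adjusted p = 0.00293) and fell by 3.00 (SE 0.58, adjusted p = 0.0026). Sln, sarcolipin, a small inhibitor of that pump, differed by -2.97 and -2.91, so the pump and its inhibitor moved in the same direction.

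On the release side, the difference from PBS was close to the median of the list for most genes. Ryr1, the calcium release channel, had a level of 8.5 ± 0.60 in PBS, 6.0 ± 1.15 after IL-4 and 5.91 ± 0.85 after IL-13 (mean ± SD, n = 5), differences of -2.50 and -2.58 that were both called. Cacna1s, the voltage sensor that opens Ryr1, differed by -2.48 and -2.55, and Trdn (triadin), which holds the channel complex together, by -2.33 and -2.20. Dhrs7c, a dehydrogenase of the sarcoplasmic reticulum, differed by -3.30 (SE 0.55, adjusted p = 0.00133) and -3.39 (SE 0.55, adjusted p = 0.00142), with IL-4 library 1 at no reads. Of the calsequestrins that hold calcium inside the store, the fast-fibre form Casq1 differed by -2.57 and -2.42 and the slow and cardiac form Casq2 by -1.82 and -2.09, all called.

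Pvalb, parvalbumin, the soluble calcium buffer of fast fibres, was the most uneven of the calcium genes. Its levels were 7.48, 9.02, 6.25, 7.44 and 7.95 in PBS, and 1.57, 0.59, 5.62, 1.06 and 5.97 after IL-4. After IL-13 they were 3.07, 6.64, 1.94, 4.46 and 2.91. The IL-4 libraries fell into 3 near the bottom and 2, libraries 3 and 5, just below PBS, and IL-13 library 2 lay inside the PBS range. The differences were -4.67 after IL-4 (SE 0.97, adjusted p = 0.00385) and -3.82 after IL-13 (SE 0.97, adjusted p = 0.0103).

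The 4 energy and oxygen genes fell with medians of -2.76 after IL-4 and -2.83 after IL-13, and none overlapped PBS in either comparison. Ckm, the muscle creatine kinase that regenerates ATP from creatine phosphate (GRCm38 chromosome 7, 19404776 to 19422841), stood at 9.19, 10.24, 8.48, 9.10 and 9.18 in PBS. It stood at 3.80, 6.09, 7.25, 5.82 and 6.90 after IL-4, and at 5.40, 7.75, 5.36, 6.94 and 5.60 after IL-13. The highest of these, IL-13 library 2, was below the lowest PBS library. Ckm fell by 3.27 (SE 0.57, adjusted p = 0.00152) and fell by 3.03 (SE 0.57, adjusted p = 0.0024). Pygm, muscle glycogen phosphorylase, differed by -2.97 and -3.03 (adjusted p = 0.00149 and 0.00169), and Mb, myoglobin, by -2.29 and -2.28. Eno3, the muscle enolase of glycolysis, had levels of 8.37 ± 0.54 in PBS, 5.81 ± 0.66 after IL-4 and 5.75 ± 0.65 after IL-13 (mean ± SD, n = 5). Its differences of -2.56 and -2.63 had the smallest adjusted p of any member in both comparisons, 0.000839 and 0.00109 (SE 0.36 each).

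**Figure D3:**
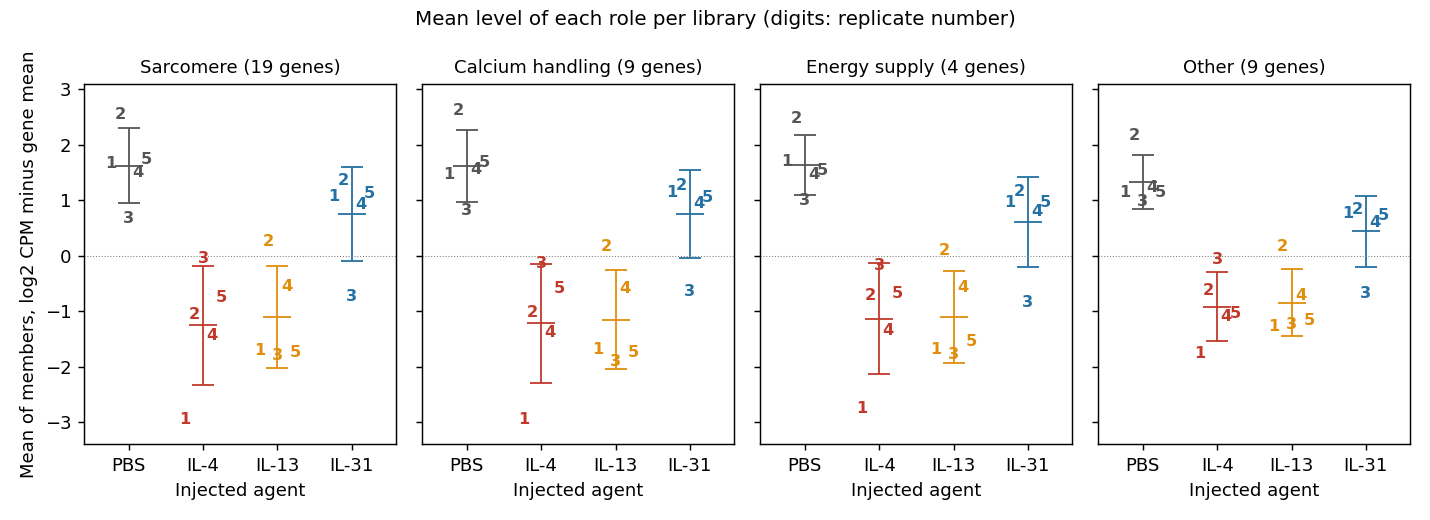
Mean over the members of each role of log2 CPM minus the gene's mean over 20 libraries (vertical axis), per library, with digits for replicate numbers and bars for mean ± SD (n = 5). In each role all IL-4 and IL-13 libraries lie below all PBS libraries, and IL-31 library 3 lies below the 4 other IL-31 libraries.

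Of the 9 other muscle-enriched genes, 8 fell after IL-4 and 8 after IL-13. Asb15, a SOCS-box protein with ankyrin repeats, was the lowest in level: -0.30, 1.36, 0.55, 0.27 and 0.44 in PBS, and -2.68, -1.52, -2.68, -1.18 and -2.68 after IL-4. It held no reads in 3 of 5 IL-4 libraries, and its fitted difference of -2.62 (SE 0.41, adjusted p = 0.00111) therefore depends on the offset. After IL-13 its levels were -1.70, -0.23, -1.11, -0.76 and -2.13, a difference of -1.65 (adjusted p = 0.00946). Kcna7, a voltage-gated potassium channel, differed by -2.95 after IL-4 and -1.96 after IL-13, and St8sia5, a sialyltransferase of gangliosides, by -3.20 and -2.35. Nos1, the nitric oxide synthase that the dystrophin complex holds at the fibre membrane, differed by -2.57 (adjusted p = 0.00586) and -3.0 (adjusted p = 0.00257). The leucine-rich-repeat genes Lrrc30 and Lrrc2 differed by -2.85 and -1.90 after IL-4 and by -3.01 and -2.51 after IL-13, and the membrane protein gene Tmem233 by -2.66 and -3.22. All of these were called. The IL-4 call of Tmem233 was lost without PBS library 2 (adjusted p = 0.0567) or IL-4 library 4 (0.0555), and the IL-13 call of Kcna7 without PBS library 2 (0.0648) or IL-13 library 3 (0.0581).

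Dysf and Fbxl22 differed in size from the other members. Dysf encodes dysferlin, which takes part in resealing the fibre membrane (GRCm38 chromosome 6, 84008590 to 84211060), and had levels of 5.04, 5.03, 4.86, 4.45 and 4.79 in PBS. It stood at 3.99, 3.57, 4.16, 3.49 and 4.07 after IL-4, at 3.55, 4.63, 2.96, 3.48 and 3.33 after IL-13, and at 4.15, 4.25, 3.34, 4.07 and 3.98 after IL-31. All IL-4 and all IL-31 values lay below PBS, and IL-13 library 2 overlapped it. Dysf fell by 0.97 after IL-4 (SE 0.24, adjusted p = 0.00988), fell by 1.24 after IL-13 (adjusted p = 0.00264) and fell by 0.87 after IL-31 (adjusted p = 0.037). Its difference from PBS after IL-31 was thus close to that after IL-4, and between IL-4 and IL-31 directly it was -0.10 (SE 0.24, adjusted p = 0.917).

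Fbxl22, an F-box protein of the Z-disc that marks targets for ubiquitin (GRCm38 chromosome 9, 66508459 to 66514593), stood at 2.38, 1.53, 2.01, 1.56 and 1.34 in PBS. Its levels were 1.87, 1.34, 1.42, 0.83 and 0.93 after IL-4, and 1.04, 1.60, 1.22, 1.17 and 0.60 after IL-13. After IL-31 they were 0.31, 1.01, 0.65, 0.94 and 0.74. The IL-31 values were the lowest of the 4 groups on average and all lay below PBS, while IL-4 and IL-13 overlapped PBS. Fbxl22 fell by 1.03 after IL-31 (SE 0.25, adjusted p = 0.0248), and its differences after IL-4 and IL-13, -0.48 and -0.64, had adjusted p-values of 0.192 and 0.0786. The difference between IL-4 and IL-31, 0.55 (SE 0.25), and that between IL-13 and IL-31, 0.39, had adjusted p-values of 0.434 and 0.888.

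**Figure D4:**
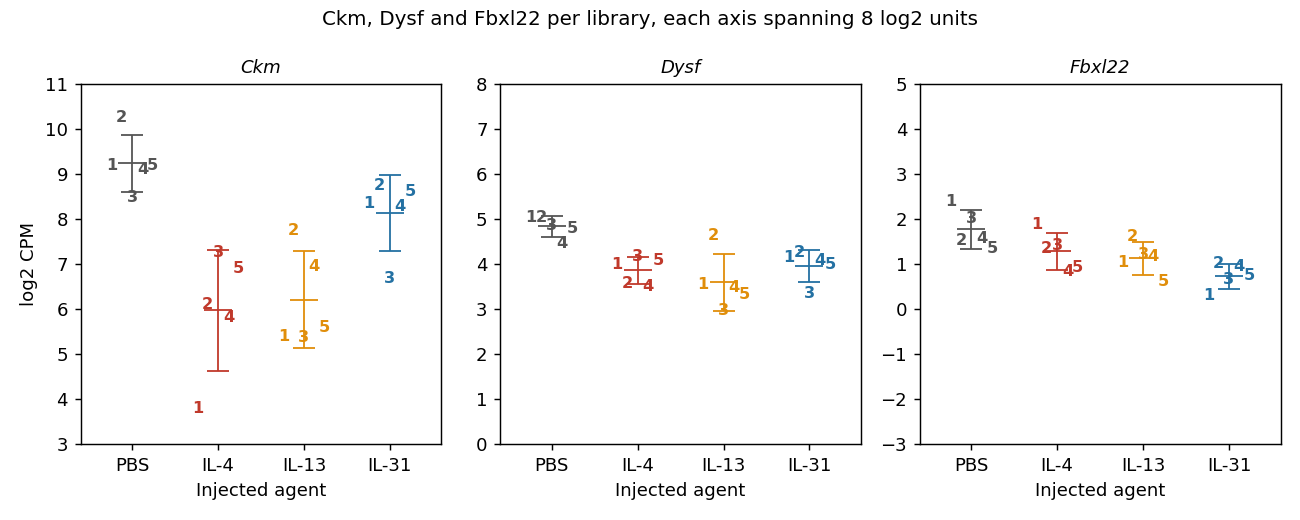
Log2 CPM of Ckm, Dysf and Fbxl22 in each library (digits: replicate number; bars: mean ± SD, n = 5), on 3 vertical axes of equal length. Ckm spans from 3.80 to 10.24 over the libraries, whereas Dysf spans from 2.96 to 5.04 and Fbxl22 from 0.31 to 2.38.

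After IL-31, most muscle genes had lower mean levels than after PBS, but few passed the test. The median log2 difference was -0.87 (range -2.0 for Mybpc2 to 0.18 for Mybph), and 40 of 41 differences were negative, where 55.8% of all genes tested were. Without IL-31 library 3 the median was -0.55. Dysf and Fbxl22 were the 2 members called lower, where 1.2% of all genes were called lower, and none was called higher. At an unadjusted p under 0.05 there were 6 members, namely Dhrs7c, Pygm, Eno3 and St8sia5 besides those 2, where 10.2% of all genes were lower at that level. The IL-31 values lay entirely below PBS in 5 members (Mylk4, Dhrs7c, Eno3, Fbxl22 and Dysf), where 1.43% of all genes did so. Both calls were lost with each of PBS libraries 1, 2 and 3 and IL-31 libraries 1, 3 and 5 left out in turn, the Dysf call also without IL-31 library 4 (adjusted p = 0.0647), and both when only the 10 libraries compared were fitted.

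By role, the medians after IL-31 were -0.83 for the 19 sarcomere genes, -0.83 for the 9 calcium genes and -1.13 for the 4 energy genes, with none called. Eno3 came nearest, with levels of 7.57, 7.64, 6.07, 7.36 and 7.45 against 8.46, 9.21, 7.76, 8.04 and 8.41 in PBS. All 5 lay below PBS, and the difference was -1.16 (SE 0.36, adjusted p = 0.0585). Mybph had levels of 2.73, 3.52, 1.82, 2.46 and 3.02 after IL-31 and 2.74, 2.78, 0.91, 1.99 and 4.23 in PBS. These overlapped throughout, and the difference of 0.18 (SE 0.53, adjusted p = 0.853) turned to -0.22 without PBS library 3 and to -0.02 without IL-31 library 2. Casq2, at -0.26 (SE 0.38, adjusted p = 0.698), turned to 0.07 without IL-31 library 3.

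IL-31 library 3 stood below the other libraries of its group in most members. For Ckm it read 6.67 against 8.27 to 8.74 in the other 4 libraries, and for Ryr1 6.06 against 8.02 to 8.42. The 41 members took 0.239% of its CPM, against 0.767 to 1.07% in the other 4 IL-31 libraries. Its effective library size, 13.2 M reads, was close to the median of 13.0 M. It also had the highest sums of its group for 8 epidermal markers, 38600 CPM against 25300 to 31300, and for 8 neutrophil markers, 462 CPM against 95.7 to 231. The cartilage sum was the highest too, 259 CPM against 173 to 235. Its sums were the lowest for smooth muscle markers (153 CPM against 186 to 234) and Schwann cell markers (401 against 478 to 670). So were those for adipocyte markers (125 against 130 to 251) and cardiac markers (28.3 against 39.0 to 47.1). The part of any of these in its low muscle values was not tested.

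Between IL-4 and IL-13 no member was called (0.0% of all genes were), and the groups overlapped in all 41, where 0.45% of all genes were lower without overlap. The median log2 difference was -0.05, with a range from -1.0 (Kcna7) to 0.61 (Lrrc2). At an unadjusted p under 0.05 there was 1 member, Asb15, with a difference of -0.96 (SE 0.41, unadjusted p = 0.0296, adjusted p = 0.997), where 2.29% of all genes were lower at that level. The sign of the median turned with the library left out, from -0.29 to 0.36.

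Between IL-4 and IL-31 the median was -1.80, and 40 of 41 differences were negative. None was called by limma with all libraries (0.0% of all genes were), with a lowest adjusted p of 0.142 for Asb15. At an unadjusted p under 0.05 there were 40 members, where 10.6% of all genes tested passed that level. The groups did not overlap in 3 members, Mybph, Sln and Asb15, where 1.76% of all genes were lower without overlap. Mybph, for example, stood at 0.09, -1.34, 1.10, 0.21 and 0.38 after IL-4, all below the lowest IL-31 library at 1.82, a difference of -2.62 (SE 0.53, adjusted p = 0.174). Without IL-31 library 3, 30 members were called lower, where 1.83% of all genes were, and with libraries weighted by their residual spread 34 were, where 3.25% of all genes were.

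Between IL-13 and IL-31 the median was -1.83, with 40 of 41 differences negative and none called by limma (0.0% of all genes were; lowest adjusted p 0.215). At an unadjusted p under 0.05 there were 39 members, where 7.29% of all genes passed. Mybph, Dhrs7c and Lrrc2 did not overlap, where 0.668% of all genes were lower without overlap. Without IL-31 library 3, 27 members were called lower (1.79% of all genes), and with weighted libraries 34 (3.01% of all genes).

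Within a library, the proportions among muscle genes can be read as the log2 ratio of each member to Ckm, in which an amount of muscle RNA common to both genes cancels. These ratios are given as a description with no test. Ckm itself fell by more than the median member, so the choice of Ckm as reference makes most ratio differences positive: the mean ratio was higher than in PBS for 34 of the 40 other members after IL-4, 32 after IL-13 and 29 after IL-31. All 5 ratios lay above all 5 PBS ratios for 8 of the 40 after IL-4, where 89.4% of all genes did so, for 5 after IL-13 (85.2% of all genes) and for 7 after IL-31 (17.7% of all genes). No member had all ratios below PBS in any group. Mybpc1 and Casq1 lay above PBS in all 3 cytokine groups, which share the PBS libraries. The slow-type gene Mybpc1 had ratios of -0.78, -0.77, -0.56, -0.57 and -0.60 in PBS. They were 0.72, 1.07, 0.01, 0.50 and -0.20 after IL-4, and 0.09, -0.51, 0.36, 0.17 and 0.32 after IL-13. After IL-31 they were 0.19, -0.03, -0.20, -0.05 and -0.35. Mybpc1 thus lay below Ckm in every PBS library and above or nearer to it in every cytokine library. Casq1 had mean ratios of -1.79 ± 0.16 in PBS, -1.09 ± 0.27 after IL-4, -1.19 ± 0.29 after IL-13 and -1.47 ± 0.11 after IL-31 (SD, n = 5).

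The remaining members above PBS in this ratio were Myot, Casq2, Cacna1s, Lrrc2, Fbxl22 and Dysf after IL-4, Cacna1s, Fbxl22 and Dysf after IL-13, and Actn2, Neb, Myot, Casq2 and Lrrc2 after IL-31. The ratio of Dysf was -4.41 ± 0.59 in PBS and -2.12 ± 1.32 after IL-4, while after IL-31 it was -4.17 ± 0.50 and overlapped PBS (SD, n = 5). Pvalb went the other way in some libraries: its ratio was -1.61 ± 0.42 in PBS, and -2.23, -5.50, -1.63, -4.76 and -0.94 in IL-4 libraries 1 to 5. IL-4 libraries 2 and 4 were thus low in Pvalb beyond their low Ckm, and the other 3 were not far from PBS. The same 2 libraries were the lowest of their group for Mybpc2 (-8.78, where library 2 held no reads, and -7.00) and Actn3 (-4.79 and -4.33). This did not extend to every fast-fibre gene. In IL-4 libraries 2 and 4 the ratio was 1.87 and 1.54 for Tnnc2, 1.41 and 1.30 for Tnnt3, 1.09 and 0.68 for Tnni2, and 1.00 and 0.28 for Mylpf. These lay above the PBS means of 0.69, 0.70, 0.01 and 0.10. Myoz1, at -3.34 and -3.18, lay slightly below its PBS mean of -3.10, and Atp2a1, at 2.35 and 1.77, lay on both sides of its PBS mean of 1.79.

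**Figure D5:**
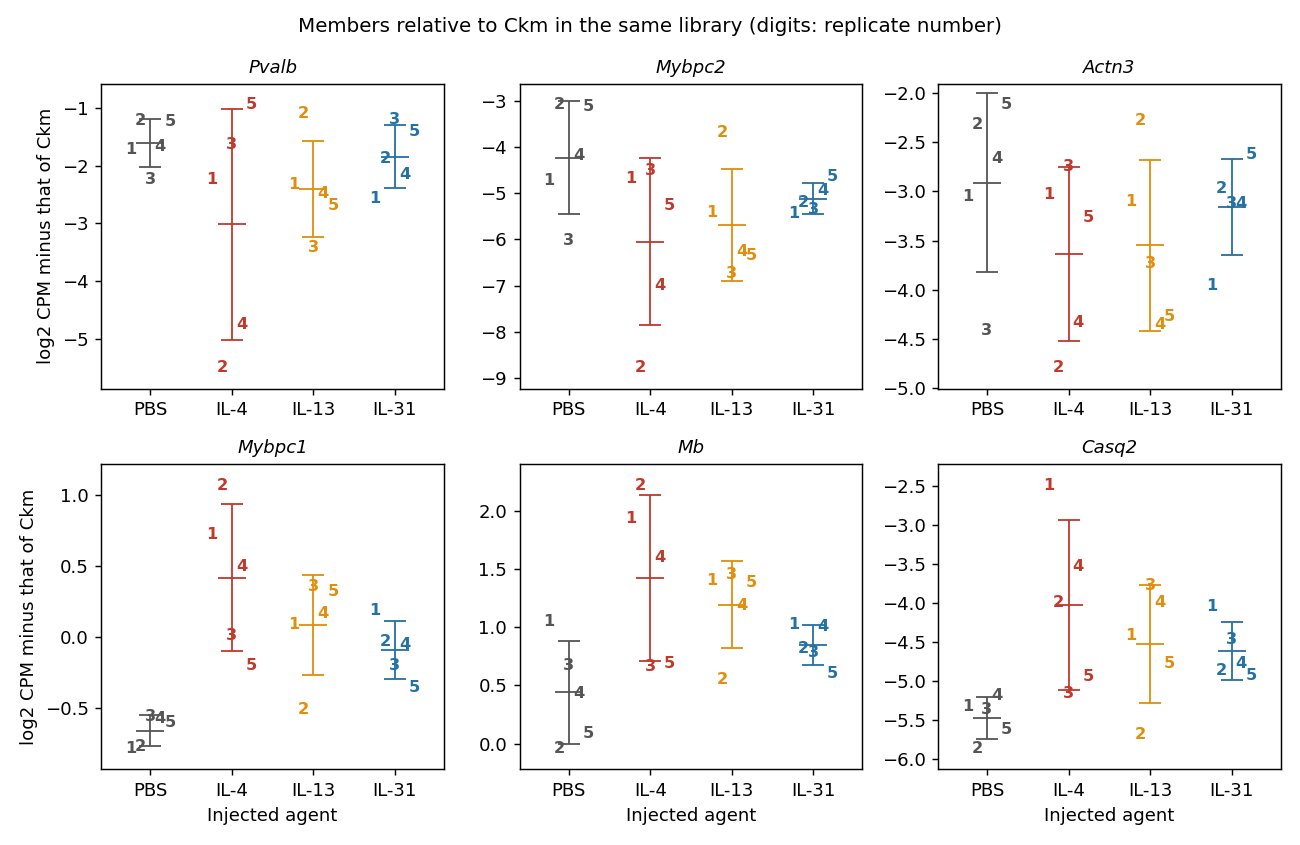
Log2 CPM of 6 members minus that of Ckm in the same library (vertical axes differ between panels), with digits for replicate numbers and bars for mean ± SD (n = 5). Mybpc1 lies above its PBS values in every cytokine library, and IL-4 libraries 2 and 4 are the lowest of their group for Pvalb, Mybpc2 and Actn3. For Actn3, PBS library 3 and IL-13 library 4 lie slightly below IL-4 library 4.

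The members also differed in how closely they followed each other within a group. After the mean of the other members in each library was removed, the within-group SD was 0.14 for Myl1, 0.17 for Mylpf and 0.18 for Pygm, with a median of 0.30 over the 41. It was 1.37 for Mybpc2, 1.29 for Pvalb, 1.02 for Kcna7, 0.92 for Fbxl22 and 0.90 for Actn3. Kcna7 had no reads in IL-4 library 5, the shallowest library. Fbxl22 varied little in itself (within-group SD of its log2 CPM 0.37) but did not move with the others.

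When a score of 85 other muscle genes, none of them members, was added to the model as a covariate, the differences between groups were smaller. The medians were -0.09 for IL-4, -0.03 for IL-13 and 0.00 for IL-31 against PBS, and no member was called by limma in any of the 6 comparisons, nor was any other gene. At an unadjusted p under 0.05 there were 5, 4 and 6 of the 41 members against PBS, where 12.4%, 10.2% and 20.1% of all genes passed that level. Eno3 had the lowest adjusted p after IL-31 (difference -0.47, SE 0.10, adjusted p = 0.0685) and had -0.61 (SE 0.15, adjusted p = 0.107) after IL-4 and -0.65 (adjusted p = 0.21) after IL-13. Per unit of the score, the fitted slope of the members had a median of 1.52 log2 units, with 2.16 for Mybpc2, 0.43 (SE 0.15) for Dysf and -0.03 (SE 0.18) for Fbxl22. With a score from 30 other sarcomere genes only, 2 members, Eno3 and Fbxl22, were called lower after IL-31, where 0.328% of all genes were. The score itself differed between the groups, so this fit describes how the members follow other muscle genes and is no correction.

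Other genes of the same pathways, from lists that hold no member, had smaller median differences. Of 30 other sarcomere genes, 29 fell after IL-4, 28 after IL-13 and 0 after IL-31, with medians of -2.15, -2.19 and -0.67. Their 3 most abundant were the tropomyosins Tpm1, at -1.94 (SE 0.35, adjusted p = 0.00172) after IL-4, Tpm2, at -2.08, and Tpm3, which non-muscle cells also use, at -0.17 (adjusted p = 0.474). Of 21 other calcium genes, 17, 16 and 0 fell, with medians of -1.64, -1.65 and -0.53. Among the most abundant here, the slow-fibre and general pump gene Atp2a2 and the store sensor gene Stim1 were not called in any comparison with PBS, with Atp2a2 at -0.64 after IL-4 (adjusted p = 0.0512). Of 21 other energy genes, 20, 20 and 5 fell, with medians of -1.71, -1.81 and -0.78. Aldoa, aldolase of glycolysis, was called in all 3 comparisons, at -1.26, -1.12 and -0.69 (adjusted p = 0.0227 after IL-31). Slc25a4, the muscle ADP and ATP carrier, was called after IL-4 and IL-13, at -1.58 and -1.56, and Ldha, lactate dehydrogenase A, in none.

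Of 13 genes of the fibre membrane and its repair, 12 fell after IL-4, 12 after IL-13 and 0 after IL-31. The membrane repair gene Trim72 and the T-tubule gene Bin1 differed by -1.63 and -1.58 after IL-4, both called. Myof, a dysferlin relative expressed beyond muscle, rose by 0.45 after IL-13 (SE 0.15, adjusted p = 0.0387) and was at 0.32 (adjusted p = 0.144) after IL-4 and 0.38 (adjusted p = 0.126) after IL-31. Of 10 markers of denervated or immature fibres, 6, 5 and 0 fell, and summed CPM was 201 to 502 in PBS, 68.4 to 151 after IL-4 and 92.4 to 207 after IL-13. Of 9 muscle atrophy genes, 3 fell and 1, Foxo3, rose after IL-4, 5 fell and 1 rose after IL-13, and none was called after IL-31. Fbxo32 differed by -0.69 after IL-4 (adjusted p = 0.0631) and -1.03 after IL-13 (adjusted p = 0.00832), and Ctsl was not called in either. Of all genes, 9.63% were called lower after IL-4, 9.8% after IL-13 and 1.2% after IL-31, and the share called higher is not given here.

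Markers of other cell types were called lower in part, while most of those of epidermis were called higher than with all 5 PBS libraries. The counts called lower stand beside 9.63% of all genes called lower after IL-4, 9.8% after IL-13 and 1.2% after IL-31. The 7 endothelial markers had 2, 4 and 0 called lower, with sums of 119 to 189 CPM in PBS, 69.5 to 129 after IL-4, 67.9 to 116 after IL-13 and 120 to 166 after IL-31. Summed CPM of 8 smooth muscle markers was 222 to 323 in PBS, 106 to 190 after IL-4, 108 to 263 after IL-13 and 153 to 234 after IL-31. Of them 2, 1 and 0 fell. Synpo2 differed by -1.82 after IL-4 (adjusted p = 0.00346) and -2.08 after IL-13 (adjusted p = 0.00195), and Smtn by -0.34 after IL-4 (adjusted p = 0.0249). Synpo2 had the highest mean CPM of the 8 and weighs most on their sums. Its levels were 6.62 ± 0.45 in PBS, 4.8 ± 0.62 after IL-4 and 4.54 ± 0.72 after IL-13 (mean ± SD, n = 5). Which cell type its RNA came from was not tested. Tagln was not called in any comparison with PBS, and the list medians were -0.36, -0.36 and -0.55. Of the cardiac list 3 genes were in the table, at 24 to 76 CPM in PBS and 30.3 to 41.3 after IL-4 or IL-13, and 0, 1 and 0 of them fell: Tnni3, the cardiac troponin I gene, fell by 0.91 after IL-13 (adjusted p = 0.0111). The 7 adipocyte markers summed to 131 to 433 CPM in PBS, 90.4 to 259 after IL-4 and 69.0 to 167 after IL-13, with 0 and 2 called lower. The 7 cartilage markers had none called in any comparison with PBS, and their sums were 151 to 309 in PBS and 153 to 326 after IL-4 or IL-13. The 8 neutrophil markers had 1, 0 and 0 called lower, and the 7 Schwann cell markers none. The 8 epidermal markers summed to 2820 to 24600 CPM in PBS and 16400 to 28500 after IL-4. Their sums were 17600 to 46900 after IL-13 and 25300 to 38600 after IL-31. Called higher were 6, 7 and 6 of them, and the share of all genes called higher is not given here. PBS libraries 4 and 5, at 24600 and 23000 CPM, lay within the IL-4 and IL-13 ranges and below the IL-31 range. The epidermal calls went in the opposite direction to the muscle genes. The calls of Synpo2, Smtn and part of the endothelial markers went in the same direction. The part of any of these in the muscle differences was not tested. In PBS libraries 1 to 5 the epidermal sums were 4330, 4120, 2820, 24600 and 23000 CPM, and Ckm stood at 9.19, 10.24, 8.48, 9.10 and 9.18. IL-4 libraries 1 to 5 had sums of 16400, 25000, 24400, 28500 and 28000 CPM and Ckm at 3.8, 6.09, 7.25, 5.82 and 6.9. For IL-13 the sums were 34200, 17600, 46900, 31900 and 33500 CPM and Ckm 5.4, 7.75, 5.36, 6.94 and 5.6. For IL-31 they were 29300, 25300, 38600, 31300 and 28900 CPM and Ckm 8.35, 8.74, 6.67, 8.27 and 8.61. The relation of the epidermal sums to Ckm was not tested.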

How the data were processed

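Gene expression was measured in 20 mouse ear pinna libraries (RNeasy Plus Universal RNA, NEBNext Ultra II libraries, per the labels' protocols). The authors deposited log2 CPM values for 16669 genes. The submitters' processing notes name the build GRCm38 and edgeR. The sources used here do not give the aligner, counter, annotation and strand setting, so reads of overlapping genes cannot be told apart. Between 80.0 and 84.5% of low values were whole multiples of a step (below 40 reads, within 0.02 reads), so reads were not recovered and no count test was run. Symbols, coordinates and exon lengths came from GENCODE M21, which matched 16652 identifiers.

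One limma 3.58.1 model (R 4.3.3; lmFit, contrasts.fit, eBayes with trend) was fitted to all 4 groups and all 16461 genes with log2 CPM of at least 0 in at least 5 libraries, which removed 208. It was tested on simulated data. P-values are two-sided and adjusted over all tested genes. Every member is named, and names for the other lists come from their 3 most abundant genes, of which 1 is not reported here. The members and lists were chosen with earlier results of these data known. Alternatives were 2 other filters, log2(CPM + 1), quantile normalization, only the 10 libraries compared, array weights, a replicate block, each library left out and, chosen after seeing the data, PBS libraries 1 to 3 left out. Promoters came from RefSeq (GRCm38.p6).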

Additional observations from a re-analysis of the deposited data

Results flagged for a closer look

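In each group of 5 libraries, a member was marked when its highest or lowest library stood apart from the other 4 by more than 0.71 of the group's range. Chance flags about 1 in 20 groups, and 28 of 164 member-by-group sets were marked. The members are not independent, since they share libraries.

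IL-31 library 3 was marked, as the lowest of its group, for 26 members. Its log2 CPM levels for sarcomere genes were 5.80 for Actn2, 6.97 for Mylpf, 6.24 for Myl1, 7.60 for Tnnt3, 7.0 for Tnni2, 7.82 for Tnnc2, 6.48 for Mybpc1, 7.27 for Ttn and 6.43 for Neb. They were 6.80 for Tcap, 3.27 for Myoz1, 4.44 for Myot, 4.52 for Ldb3, 6.40 for Des and 2.43 for Mylk4. For calcium genes its levels were 8.19 for Atp2a1, 6.06 for Ryr1, 3.79 for Cacna1s, 4.30 for Trdn and 0.67 for Dhrs7c. For energy genes they were 6.67 for Ckm, 5.32 for Pygm, 6.07 for Eno3 and 7.45 for Mb, and among the other genes 0.98 for Kcna7 and 1.56 for Lrrc2. IL-4 library 1 was marked, as the lowest of its group, for Sln, at 0.77, and for Trdn, at 2.43. Both libraries were also the lowest of their group for members without a mark. Acta1, for example, was at 7.6 in IL-31 library 3 and 4.87 in IL-4 library 1.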

How the results depend on the processing

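Limits: the groups have 5 libraries each, library 3 of IL-31 and libraries 1 to 3 of PBS weigh on several counts, and a gene below about 0.491 CPM is near the limit of 3 reads in the shallowest library. Under 8 alternatives chosen from the design and the 1 added later, the median difference of the members from PBS stayed between -2.82 and -2.23 for IL-4, between -2.86 and -2.32 for IL-13 and between -1.04 and -0.55 for IL-31. Counts of members called against PBS ranged from 33 to 40 for IL-4, the lowest being without PBS libraries 1, 2 and 3. With a mean log2 CPM of at least 1 required, 35 of the 36 members tested were called for IL-4 and 35 for IL-13. For IL-13 the count was 12 without PBS libraries 1, 2 and 3, and 39 to 41 with any single library left out. For IL-31 it was 0 when only the 10 libraries compared were fitted, 0 without PBS libraries 1, 2 and 3, and 0 to 3 with a single library left out. Against IL-31, IL-4 gave 34 calls with array weights and 0 to 30 with a library left out, and IL-13 gave 34 and 0 to 27. Of the counts with a library left out, the highest in both came without IL-31 library 3, and the cause was not tested. With the other sarcomere score as covariate, 2 members were called after IL-31. For single genes, the difference of Mybph after IL-31 lay between -0.22 (without PBS library 3) and 0.61 with a library left out, was -0.02 without IL-31 library 2 and was -0.40 without PBS libraries 1, 2 and 3. That of Casq2 lay between -0.46 and 0.07 (without IL-31 library 3).

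Same replicate numbers did not mark pairs across all groups. Of 30 same-number pairs, 10 had a correlation of deviations over 0.1 (range -0.236 to 0.486), and 3 of 20 libraries correlated best with their own number. The highest values were among the number 2 libraries: 0.486 for PBS and IL-13, 0.452 for PBS and IL-31, and 0.402 for IL-13 and IL-31. With IL-4 library 2 they had 0.029 to 0.078. Library 2 also had the highest member share of CPM in PBS (2.54%), IL-13 (0.507%) and IL-31 (1.07%). The cause was not tested. With the replicate block, 40 members were called lower after IL-4 (9.65% of all genes), 40 after IL-13 (9.79%) and 3 after IL-31 (1.59%), namely Eno3, Dysf and Fbxl22. For IL-4 against IL-31, 1 was called, Asb15 (0.0121% of all genes; 0 members without the block).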
